A study of Mus musculus with 4 samples.

Results

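Gene desert regions are defined here as stretches of accessible chromatin that lie more than 100 kb from every protein-coding gene and had a peak in at least 2 of 4 ATAC-seq libraries of mouse CD4 T cells. Merging all peaks with an overlap of 1 bp or more gave 97394 regions. A peak in 2 or more libraries was found in 50223 of these, and 2386 of the 50223 had a midpoint more than 100 kb from every protein-coding interval of the RefSeq genes on GRCm38. The members were thus chosen by the presence of peaks and by distance, and counts of libraries with a peak are given below as a description, without a test. The name desert refers to protein-coding genes alone. Of the 2386 regions, 780 (32.7%) overlapped a noncoding gene, a pseudogene or an antigen receptor locus, and 246 regions were left when a distance of more than 100 kb was asked from genes of every kind. RefSeq does not count antigen receptor gene segments as protein-coding, so 79 of the 2386 regions lay inside such loci.

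ATAC-seq marks open DNA, which a transposase cuts and tags. The cells were SMARTA CD4 T cells, whose transgenic T cell receptor recognizes the GP61 peptide. They had been transferred as naive cells into mice that bore B16-GP61 tumors, a melanoma line carrying that peptide, and that had received cytoxan, a drug that depletes lymphocytes. The tumor-draining lymph node was the source of the sorted cells, on day 11. KO-1 and KO-2 came from TOX KO cells sorted as CD4+ cells, Ly5.1+ and Ly5.2-, with PD1, LAG3 and CD39 low. WT-1 and WT-2 came from TOX WT cells sorted as CD4+ cells positive for Ly5.1 and Ly5.2, with PD1, LAG3 and CD39 high. Genotype, congenic marker and sort gate changed together and cannot be told apart, and the part of the Tox gene that was deleted is not given in the labels used here. Nothing in the labels says whether the 2 libraries of a genotype came from separate animals, so their spread may be technical. In such bulk samples, fewer cells with an open site and a less open site in every cell cannot be told apart.

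Long stretches without protein-coding genes are known to hold distal enhancers, DNA elements that bind transcription factors and act on promoters far away. Enhancers often stand in clusters beside genes of transcription factors and cell survival that a cell type depends on. Many deserts also carry long noncoding RNA (lncRNA) genes, whose promoters can be open as well. TOX binds DNA through an HMG box and is known for its role in thymic T cell development and in exhausted T cells.

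The members themselves could be shown as sequence only where they covered the start of a noncoding gene. RefSeq promoter windows (GRCm38.p6, from 250 bases before to 50 after a start) overlapped 59 of the 2386 regions, in 68 windows of 60 lncRNA genes. Of the 59 regions, 1 was open in the KO pair of libraries alone, 9 in the WT pair alone and 31 in all 4 libraries. The following 6 windows, each written 5′ to 3′ on the strand of its gene, were chosen after their values were seen to show the single KO-only window, a WT-only window and windows open in all libraries at loci described below. Capitals mark motifs of AP-1, RUNX, ETS, E-box and GATA factors found by a search on both strands, with the letters given after the windows. No motifs overlap in the windows shown.
Morrbid (chr2:128429302-128429601, minus strand): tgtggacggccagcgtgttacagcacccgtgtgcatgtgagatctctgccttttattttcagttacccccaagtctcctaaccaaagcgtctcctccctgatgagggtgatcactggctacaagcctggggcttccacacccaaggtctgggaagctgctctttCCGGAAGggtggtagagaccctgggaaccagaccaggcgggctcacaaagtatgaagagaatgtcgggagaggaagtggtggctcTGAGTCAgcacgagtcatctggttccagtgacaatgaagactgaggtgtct
Gm30214 (chr14:53039417-53039716, minus strand): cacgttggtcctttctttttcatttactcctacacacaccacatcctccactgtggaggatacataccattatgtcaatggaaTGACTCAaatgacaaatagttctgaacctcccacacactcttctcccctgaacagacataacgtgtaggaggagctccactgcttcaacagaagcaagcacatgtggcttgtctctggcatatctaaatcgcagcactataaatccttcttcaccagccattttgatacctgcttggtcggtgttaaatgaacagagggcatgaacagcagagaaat
Gm12159 (chr11:45116879-45117178, minus strand): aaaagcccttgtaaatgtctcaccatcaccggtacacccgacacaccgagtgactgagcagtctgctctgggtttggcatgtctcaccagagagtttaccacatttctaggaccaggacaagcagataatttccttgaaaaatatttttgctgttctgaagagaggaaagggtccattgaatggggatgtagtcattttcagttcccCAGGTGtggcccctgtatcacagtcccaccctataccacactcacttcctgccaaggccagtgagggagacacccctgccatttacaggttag
Gm30948 (chr12:115262401-115262700, plus strand): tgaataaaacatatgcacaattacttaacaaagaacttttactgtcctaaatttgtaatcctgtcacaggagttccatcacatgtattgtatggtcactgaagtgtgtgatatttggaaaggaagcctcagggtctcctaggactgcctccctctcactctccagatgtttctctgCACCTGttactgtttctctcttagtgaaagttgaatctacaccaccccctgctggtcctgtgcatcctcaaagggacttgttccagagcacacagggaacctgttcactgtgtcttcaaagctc
Gm19585 (chr17:52149039-52149338, plus strand): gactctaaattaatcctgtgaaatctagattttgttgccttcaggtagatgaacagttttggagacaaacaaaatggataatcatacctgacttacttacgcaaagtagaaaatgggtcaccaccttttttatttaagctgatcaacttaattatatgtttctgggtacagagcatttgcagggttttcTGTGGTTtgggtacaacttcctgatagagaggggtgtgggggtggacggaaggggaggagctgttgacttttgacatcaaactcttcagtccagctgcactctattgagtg
Lncpint (chr6:31218425-31218724, minus strand): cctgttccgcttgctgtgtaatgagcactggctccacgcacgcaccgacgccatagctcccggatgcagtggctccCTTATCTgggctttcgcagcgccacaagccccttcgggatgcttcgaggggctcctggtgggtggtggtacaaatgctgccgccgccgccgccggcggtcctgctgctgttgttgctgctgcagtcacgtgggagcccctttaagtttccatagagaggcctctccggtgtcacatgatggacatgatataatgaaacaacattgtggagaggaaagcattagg
The Morrbid window, which held 1 AP-1 and 1 ETS motif, lay in a region with a fold enrichment of 3.60 and 4.59 in the KO libraries and 5.40 and 4.19 in the WT libraries. That of Gm30214, inside the T cell receptor locus Tcra and with 1 AP-1 motif, had 10.6 and 17.4 in the KO libraries, against 5.81 and 7.21 in the WT libraries. In percentiles Gm30214 stood at 93.1 and 97.4 in the KO libraries, above 68.1 and 77.3 in the WT libraries, while the genotypes overlapped at Morrbid. The Gm12159 window, 109 kb from the B cell transcription factor gene Ebf1 and with 1 E-box, had a peak in the WT libraries alone, with 7.64 and 8.76. The Gm30948 window, inside the immunoglobulin locus Igh and with 1 E-box, had a peak in the KO libraries alone, with 3.44 and 4.19. At Gm19585, 316 kb from Satb1, a chromatin organizer of T cells, the window held 1 RUNX motif and its region had 3.98 and 9.01 in the KO libraries and 6.74 and 9.25 in the WT libraries. The Lncpint window held 1 GATA motif, in a region with 3.35 and 4.45 in the KO libraries and 4.07 and 3.51 in the WT libraries.
The AP-1 motif, spelled TGANTCA, was found in 10 of the 68 windows over desert regions and in 7.81% of all 32851 RefSeq promoter windows of the mouse. For RUNX factors the letters TGTGGTT stood in 13 of the 68 windows and in 5.27% of all. The ETS letters CCGGAAG were matched by 4 of the 68 and by 8.86% of all. An E-box, CAGGTG, was present in 17 of the 68 and in 20.2% of all. Last, the GATA letters AGATAAG occurred in 4 of the 68 and in 3.04% of all. A match describes the letters of the window and is not a bound site.

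The 4 lists held 43078 and 61773 peaks in KO-1 and KO-2, and 56852 and 61489 in WT-1 and WT-2. KO-1 thus had the shortest list, and read depth is unknown, so an absent peak is a peak that was not called at an unknown depth. Column 7 of the lists is the authors' fold enrichment of a peak over background as set by the caller. It was read mainly as a percentile of the library's own list, where 100 is the highest. Fold values of different libraries are set side by side below, but they are not on a common scale, and the order between libraries was read from percentiles. Desert regions had a peak in 1259 and 1721 cases in KO-1 and KO-2, and in 1910 and 2019 in WT-1 and WT-2. Peaks in desert regions made up 3.12% and 2.93% of the lists of KO-1 and KO-2, against 3.59% and 3.44% in WT-1 and WT-2. The KO mean was 3.03% ± 0.131 and the WT mean 3.52% ± 0.108 (SD, n = 2 each), and the values of the genotypes did not overlap. This difference is not independent of the rule that chose the members. Of these, 579 passed it through the WT pair alone and 178 through the KO pair alone. With only the 20000 peaks of highest −log10 q in each library the difference was 0.0625 percentage points in the other direction. It also turned when a WT library was left out, to 0.433 without WT-1 and 0.343 without WT-2. The WT-only members then no longer have a peak in 2 libraries and leave the set, while KO-only members stay. This turn thus follows in part from the rule.

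Most open sites in deserts were seen in a single library. Of 14616 merged regions more than 100 kb from protein-coding genes, 12230 (83.7%) had a peak in 1 library alone, against 42.2% of the 82778 regions closer to or inside such genes. These single-library sites are no members. They were weak, with a median percentile of 21.8 and 21.5 in KO-1 and KO-2 and 14.9 and 17.2 in WT-1 and WT-2, and 5978 of them belonged to KO-2.

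By the libraries in which a peak was present, 178 of the 2386 members (7.46%, exact 95% binomial interval 6.44 to 8.59) were KO-only, that is, found in KO-1 and KO-2 but not in WT-1 or WT-2. Over all 50223 regions in 2 or more libraries the KO-only share was 3.46%. WT-only members, found in WT-1 and WT-2 but not in KO-1 or KO-2, numbered 579 (24.3%, interval 22.6 to 26.0), against 17.1% of all regions. A peak in all 4 libraries was found in 854 members (35.8%, interval 33.9 to 37.8), against 53.5% of all regions. Intervals cover counting error alone. Among the 775 members with other combinations, 255 lacked a peak in KO-1 alone, 94 in WT-1 alone, 47 in WT-2 alone and 33 in KO-2 alone. KO-1 was thus the library most often missing.

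**Figure D1:**
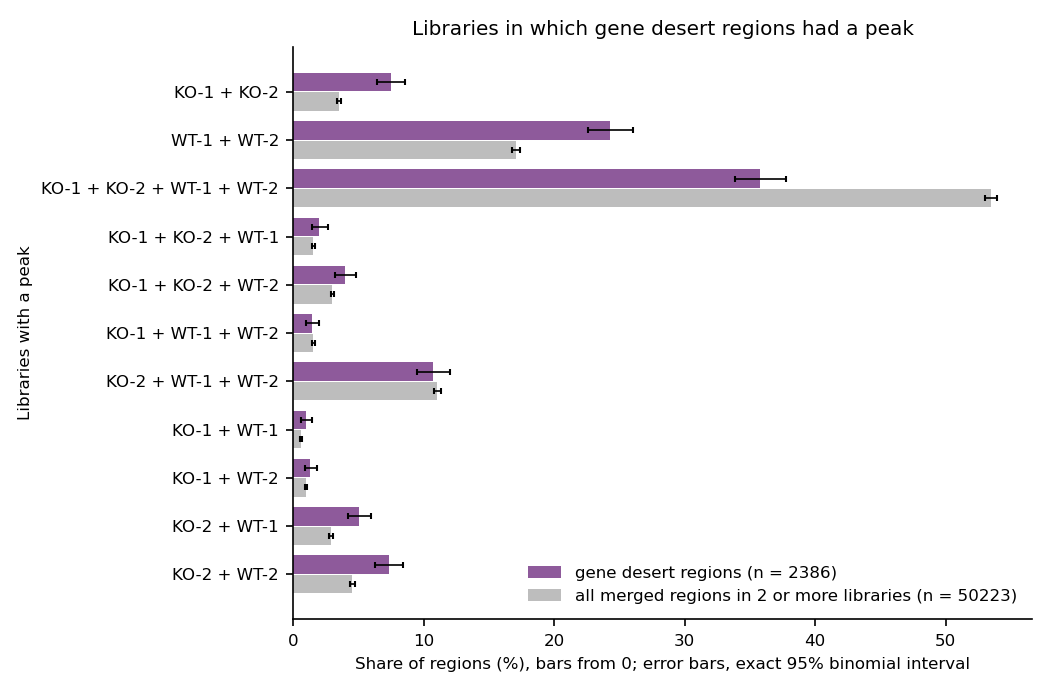
Share of regions (x axis, percent) by the libraries that had a peak (y axis), for the 2386 gene desert regions and for all 50223 regions with a peak in 2 or more libraries. Error bars are exact 95% binomial intervals. Desert regions had a smaller share in all 4 libraries (35.8% against 53.5%) and larger KO-only (7.46% against 3.46%) and WT-only shares (24.3% against 17.1%).

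KO-only desert regions were fewer than WT-only ones, by a WT-only to KO-only ratio of 3.25. The ratio was 5.96 among the 17472 regions between genes but within 100 kb of one, and 4.67 among the 30365 regions inside protein-coding genes. Deserts thus had the lowest ratio of the 3 places. The excess was not seen with the 20000 peaks of highest −log10 q in each library, where 134 members were KO-only and 137 WT-only, a ratio of 1.02. With peaks of −log10 q of at least 10 the ratio was 5.24, from 50 KO-only and 262 WT-only members. Leaving out a WT library raised the KO-only count to 227 (without WT-1) or 274 (without WT-2). Leaving out a KO library gave 613 (without KO-1) or 838 (without KO-2) WT-only members. Such rises follow from the rule, since fewer libraries then have to lack a peak.

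Desert regions open in all 4 libraries were wider and ranked higher than those of 1 genotype. Within a single library, the median peak width of the 854 members open in all was 449.5 and 572.5 bp in KO-1 and KO-2, and 512.5 and 518 bp in WT-1 and WT-2. For KO-only members it was 245 and 314 bp in KO-1 and KO-2, and for WT-only members 287 and 327 bp in WT-1 and WT-2. The merged width, which spans more peaks in the first class by construction, had a median of 469.5 bp over all members, from 152 to 1760 bp, against 556 bp over all regions in 2 or more libraries. In the KO-only members the median percentile of fold enrichment was 38.2 in KO-1 and 49.3 in KO-2, and in the WT-only members it was 45.4 in WT-1 and 48.6 in WT-2. Members in all libraries had median percentiles of 62.6 and 75.6 in KO-1 and KO-2, and 65.7 and 67.2 in WT-1 and WT-2. Classes rest on where peaks were called, so class and strength are not independent. Over all regions in 2 or more libraries the order was the same. There the medians were 30.7 and 43.9 (KO-only, KO libraries) and 42.5 and 46.2 (WT-only, WT libraries). Regions in all libraries had 68.3 and 77.9 in the KO libraries and 74.1 and 76.0 in the WT libraries. Taken over all peaks in members, the median percentile was 52.6 and 59.3 in the KO libraries and 50.4 and 52.8 in the WT libraries, and KO-1 lay below WT-2, so the groups overlapped. The difference of the means was 4.37 percentile points (two-sided exact permutation p = 0.667, n = 2 each). The median peak width was 341 and 371 bp in the KO libraries and 328 and 352 bp in the WT libraries, a difference of 16 bp (two-sided exact permutation p = 0.667, n = 2 each). With 2 libraries against 2 the smallest p this test can give is 0.333. Both medians include peaks of members that passed the rule through 1 genotype alone, so no conclusion is drawn from the test.

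**Figure D2:**
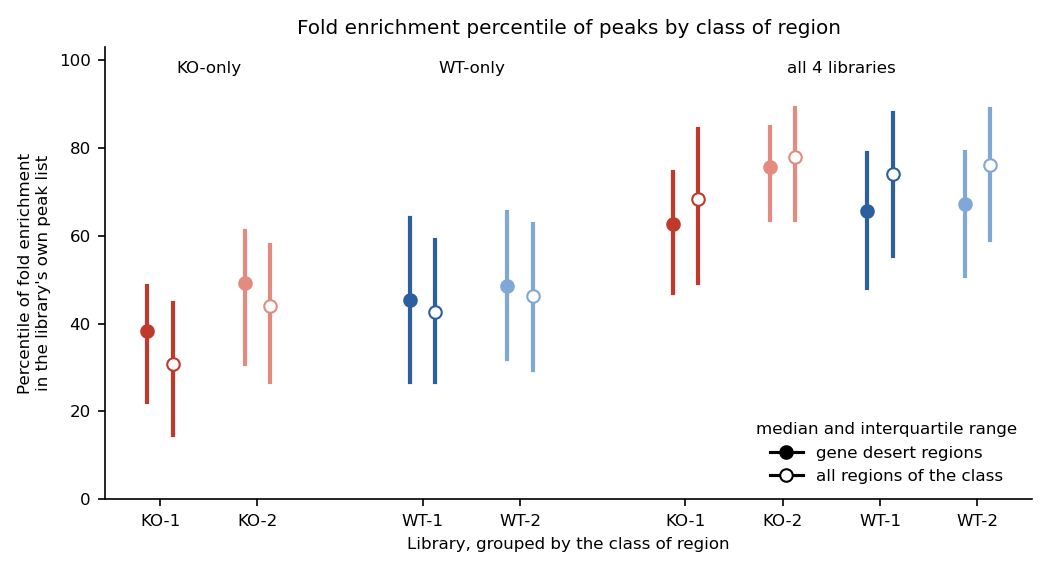
Percentile of fold enrichment within the library's own peak list (y axis) by library and class of region (x axis). Filled points are gene desert regions and open points are all regions of the same class; points are medians and bars the interquartile range over regions. Members open in all 4 libraries had medians from 62.6 to 75.6, and KO-only and WT-only members from 38.2 to 49.3.

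Among the 854 desert regions open in every library, KO cells more often had the higher rank. In 263 of them (30.8%) both KO percentiles lay above both WT percentiles, against 16.5% of all 26867 regions open in 4 libraries. The reverse order was found in 145 (17.0%), against 25.9% of all such regions. When ranks were taken only among regions open in every library, so that the length of a list no longer entered, the counts were 319 and 148. In that ranking the shares over all 26867 regions were 22.0% and 24.0%. This second ranking was chosen after the data were seen.

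The distance of the members from the nearest protein-coding gene had a median of 180 kb and ran to 2077 kb. Just inside the limit of 100 kb lay members at 100016, 100023 and 100088 bp, and just outside it regions in 2 or more libraries at 99943, 99935 and 99874 bp. Of the 840 members at 100 to 150 kb, 5.12% were KO-only, 26.5% WT-only and 35.8% open in every library. Of the 233 members more than 500 kb away, 12.02% were KO-only, 25.8% WT-only and 22.7% open in every library. KO-only members had a median distance of 233 kb, WT-only members of 173 kb and members in every library of 175 kb. The most distant members, at 2077 and 2042 kb, stood between Olfm4 and Pcdh17 on chromosome 14 and had peaks in other combinations than these classes.

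The members stood in groups along the chromosomes. A cluster was called where at least 3 members followed each other with gaps of at most 50 kb between midpoints. The 240 clusters held 1552 members (65.0%), while 548 (23.0%) stood alone and 286 in pairs. Clusters contained 52.8% of the KO-only members, 59.9% of the WT-only members and 76.3% of those open in every library. A cluster had a median of 5 members over 55.9 kb, and 44 clusters of 10 or more held 650 members. Both KO-only and WT-only members were present in 32 of the 240 clusters, while 1 cluster consisted of KO-only members alone and 10 of WT-only members alone.

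The largest cluster had 29 members over 176 kb on chromosome 2, from 128294516 to 128470907, between Bcl2l11, which encodes the death-promoting protein Bim, and Spdye4c. It held no KO-only members, 3 WT-only members and 12 open in every library. On chromosome X, 25 members lay within 161 kb between Olfr1324 and Stk26, with 16 open in every library, 3 KO-only and no WT-only members. Between Tle3, a corepressor gene, and Rplp1 on chromosome 9 another 25 members lay within 172 kb, 16 of them open in every library. The stretch between Foxo1 and Cog6 on chromosome 3 had a cluster of 25 over 324 kb. Clusters of 24 members stood between Klf14 and Mkln1 on chromosome 6 and between Trib2 and Lpin1 on chromosome 12, each with 12 members open in every library.

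Few deserts carried most of the members. The genome had 1537 stretches longer than 200 kb between neighbouring protein-coding genes, and 525 of them (34.2%) held at least 1 member. The 70 deserts with 10 or more members held 1219 members (51.1%). Over all deserts there were 3.23 members per Mb of the part more than 100 kb from either gene, and 47.8% of that part lay in deserts without any member. Long deserts could be almost empty: the desert between Celf4 and Pik3c3, 4511 kb long, had no member, and the one between Pcdh20 and Pcdh9, 4542 kb long, had 3.

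**Figure D3:**
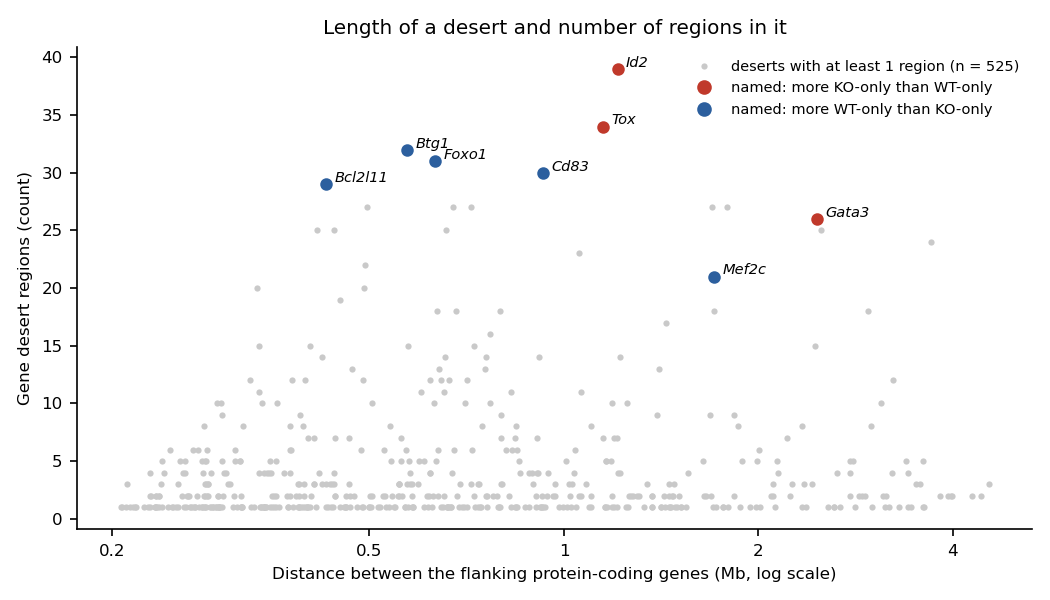
Number of gene desert regions (y axis) against the distance between the 2 flanking protein-coding genes (x axis, Mb, log scale), 1 point for each of the 525 deserts with a region. Named points are the 6 deserts with the most regions and those of Mef2c and Gata3, red where KO-only and blue where WT-only regions were more frequent; the highest counts, 39 at Id2 and 34 at Tox, did not belong to the longest deserts.

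The 6 deserts with the most members adjoined Id2, Tox, Btg1, Foxo1, Cd83 and Bcl2l11. The desert between Id2 and Rnf144a on chromosome 12, 1211 kb long, had 39 members, with 30 and 35 present in the KO libraries and 29 and 32 in the WT libraries. Id2 encodes an inhibitor of E proteins that effector T cells and innate lymphoid cells use, and the start of the gene faces this desert. Here 21 members were open in every library, 6 were KO-only and 4 WT-only. Between Eea1 and Btg1 on chromosome 10, where Btg1 encodes an antiproliferative factor, 32 members had peaks in 21 and 25 cases in the KO libraries and in 27 and 30 in the WT libraries. They comprised 17 open in every library, 1 KO-only and 6 WT-only. Foxo1, a transcription factor of resting lymphocytes, was followed past its end by 31 members up to Cog6, of which 20 and 22 were present in the KO libraries and 27 and 28 in the WT libraries. Between Bcl2l11 and Spdye4c, 19 and 24 of the 29 members were present in the KO libraries and 20 and 26 in the WT libraries.

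**Figure D4:**
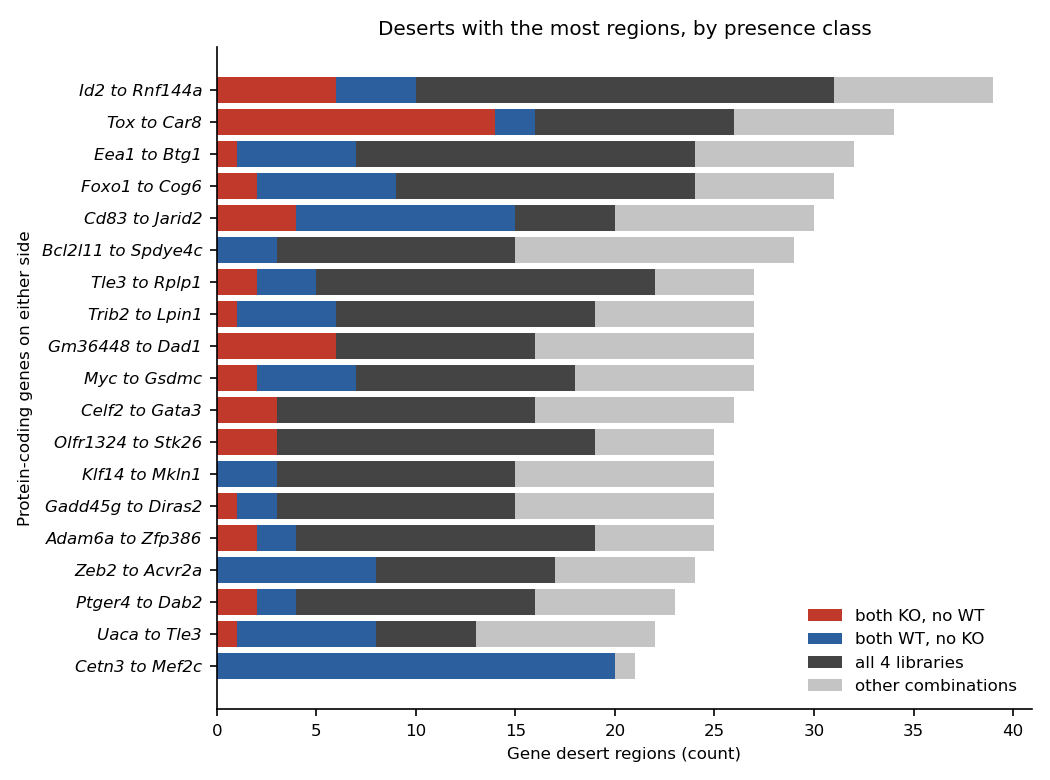
Shown are 19 of the 20 deserts with the most gene desert regions, named by the protein-coding gene on either side (y axis), with the number of regions (x axis) split into KO-only, WT-only, all 4 libraries and other combinations. KO-only regions were most frequent at Tox to Car8 (14 of 34) and WT-only regions at Cetn3 to Mef2c (20 of 21).

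At the desert beside Tox, both KO libraries had more peaks than either WT library. Between Tox and Car8 on chromosome 4, a stretch of 1150 kb, 34 members had peaks in 27 and 32 cases in KO-1 and KO-2, against 14 and 20 in WT-1 and WT-2. KO-only members numbered 14 and WT-only members 2, where the desert with the next most KO-only members had 6. The KO-only members lay between 161 and 862 kb from the edge of Tox. Their strongest, at chr4:7156324-7156931 inside the lncRNA gene Gm33462, had a fold enrichment of 5.77 and 7.86 in KO-1 and KO-2. The next, at chr4:7341078-7341802, had 5.73 in KO-1 and 7.69 in KO-2 and overlapped no annotated gene. The 2 WT-only members had a fold enrichment of 3.06 and 3.82 in WT-1 and 2.83 and 3.11 in WT-2.

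Sites beside Tox that were open in every library also ranked higher in KO cells. In 8 of these 10 members both KO percentiles lay above both WT percentiles, and in none the reverse. Their median percentile was 74.7 and 79.9 in the KO libraries, against 41.8 and 59.2 in the WT libraries. The member at chr4:7112007-7112891, 121 kb from Tox, had a fold enrichment of 6.54 and 9.94 in the KO libraries, against 2.90 and 4.66 in the WT libraries. That at chr4:7447905-7449026 had 8.45 and 9.25 in the KO libraries, against 3.06 and 3.25 in the WT libraries. With the 20000 peaks of highest −log10 q in each library, 11 KO-only members and no WT-only members were left in this desert. With a −log10 q of at least 10 there were 5 KO-only members and no WT-only members. The KO-only count was 14 without WT-1 and 17 without WT-2.

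**Figure D5:**
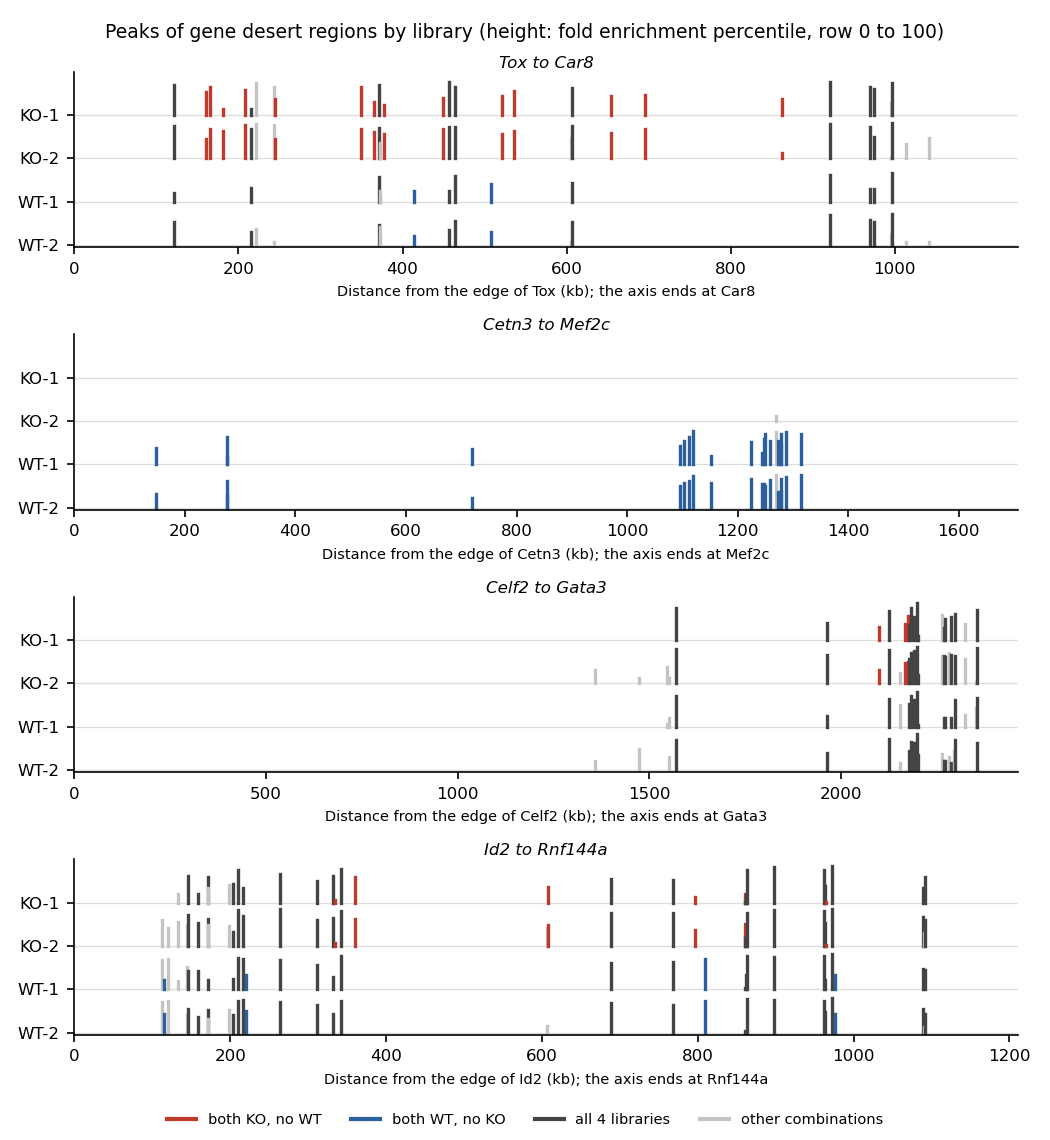
Gene desert regions between Tox and Car8, Cetn3 and Mef2c, Celf2 and Gata3, and Id2 and Rnf144a, drawn at their distance from the first gene (x axis, kb) with 1 row for each library (KO-1, KO-2, WT-1, WT-2 from top). The height of a line is the percentile of fold enrichment, 0 to 100 within a row, and its colour the class of the region. The 14 KO-only regions beside Tox lie among regions open in all libraries, while 20 of 21 regions beside Mef2c have lines in the WT rows alone.

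Higher ranks in KO libraries were frequent at the antigen receptor locus Tcra and beside Gata3 as well. In the stretch between Gm36448 and Dad1 on chromosome 14, which is the Tcra locus of the T cell receptor alpha chain, all 27 members lay inside Tcra. They had peaks in 20 and 26 cases in the KO libraries and in 19 and 17 in the WT libraries, with 6 KO-only and no WT-only members. Of the 10 open in every library, 9 ranked higher in both KO libraries than in both WT libraries and none lower. Among all members open in every library, the widest gap with KO above WT percentiles was at the segment Trav14d-3-dv8, chr14:53078458-53079112, with a fold enrichment of 8.02 and 12.3 in the KO libraries, against 2.60 and 2.83 in the WT libraries. Between Celf2 and Gata3 on chromosome 2, 2461 kb, 26 members were present in 18 and 26 cases in the KO libraries and in 18 and 20 in the WT libraries. Gata3, the transcription factor of type 2 helper cells that early T cells need as well, has its end toward this desert. Here 3 members were KO-only, none WT-only and 13 open in every library, of which 7 ranked higher in both KO libraries and none in both WT libraries. The highest of them, chr2:9593738-9594640, 263 kb from Gata3, had a fold enrichment of 11.0 and 15.2 in the KO libraries and 11.8 and 12.8 in the WT libraries. In percentiles this was 94.1 in both KO libraries, above 90.02 and 92.1 in the WT libraries. The median percentile of the 13 members was 60.0 and 72.2 in the KO libraries and 68.1 and 70.6 in the WT libraries, so the genotypes overlapped. Over all 854 members open in every library, 30.8% ranked higher in both KO libraries.

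Deserts beside other T cell genes were rich in members as well. From a list of 92 T cell genes, chosen with earlier results of these data known, 35 flanked 41 deserts, and 34 of those 41 (82.9%) held a member, against 34.2% of all deserts. These deserts had a median of 7 members, against 0 over all deserts, and 15.96 members per Mb, against 3.23. Their 408 members had peaks in 242 and 332 cases in the KO libraries and in 317 and 339 in the WT libraries. KO-only members made up 10.3% and WT-only members 17.2%, and 41.2% were open in every library. Without the Tox deserts the shares were 7.49% KO-only and 18.2% WT-only. Beside Myc, the growth regulator, both flanking deserts together had 38 members, of which 2 were KO-only and 7 WT-only. The desert of Zeb2, a transcription factor of effector lymphocytes, had 24 members, none KO-only and 8 WT-only. Singled out after the values were seen, Prdm1, the gene of the repressor Blimp-1, had 8 members with peaks in 0 and 3 cases in the KO libraries and in 7 and 8 in the WT libraries. Dusp4, a phosphatase of activated kinases, had 18 members, 5 of them KO-only and 2 WT-only.

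The desert beside Mef2c had the most WT-only members, 20, where the desert with the next most had 11. Among 148 deserts with 5 or more members, 24 were over 50% WT-only and 1 was over 50% KO-only. Over all 2386 members, 24.3% were WT-only and 7.46% KO-only, and whether these counts go beyond those shares was not tested. The deserts between Hira and Olfr164 and between 1500009L16Rik and Nuak1, with 5 members each, were 100% WT-only. Between Cetn3 and Mef2c on chromosome 13, 1707 kb, none of 21 members was KO-only and 20 were WT-only. Mef2c is a transcription factor of B cells, muscle and neurons, and its start faces this desert. Peaks were present at 0 and 1 members in the KO libraries and at all 21 in both WT libraries. A cluster of 12 members spanned 92.2 kb, from 83020834 to 83113039. The WT-only member at chr13:82915161-82915729 had a fold enrichment of 9.75 and 8.48 in WT-1 and WT-2. The only member with a KO peak, chr13:83065975-83066737, had 3.03 in KO-2, against 9.09 in WT-1 and 8.74 in WT-2. With the 20000 peaks of highest −log10 q in each library 5 WT-only members were left here. The WT-only count was 20 without KO-1 and 21 without KO-2.

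The Mef2c desert was 1 of several beside genes known from B cells. Both sorts were for CD4+ cells, and whether B cells were present was not tested. From a list of 29 B cell genes, 5 flanked 6 deserts. These had a median of 7.5 members, against 0 over all deserts, and 12.4 members per Mb, against 3.23. Of the 6 deserts, 5 (83.3%) held a member, and together they held 67 members. Peaks were present at 15 and 24 of these members in KO-1 and KO-2, against 56 and 62 in WT-1 and WT-2. KO-only members made up 7.46% and WT-only members 64.2%, against 7.46% and 24.3% over all desert regions. Without Mef2c, left out after the values were seen, 46 members were left, 5 KO-only and 23 WT-only, with peaks in 15 and 23 cases in the KO libraries and in 35 and 41 in the WT libraries. Ebf1, a transcription factor that sets B lineage identity, had 8 members, 6 of them WT-only, 1 KO-only and 1 open in every library. Bcl11a, needed for B cell development, had 7 with 5 WT-only, and Bank1, a B cell receptor adaptor, had 1, which was WT-only. Cd83, a surface protein of activated lymphocytes and dendritic cells, adjoined 30 members, of which 4 were KO-only and 11 WT-only. Without both Mef2c and Cd83 the list had 16 members, 1 KO-only and 12 WT-only, with peaks in 2 and 4 cases in the KO libraries and in 15 and 15 in the WT libraries.

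The antigen receptor loci were not alike in these counts. The immunoglobulin kappa locus Igk had 12 members, 11 WT-only, with 0 and 1 present in the KO libraries and 12 and 12 in the WT libraries. All 5 members inside the lambda locus Igl were WT-only. The heavy chain locus Igh had 29 members, 15 of them open in every library, 2 KO-only and 5 WT-only, with 18 and 24 present in the KO libraries and 25 and 26 in the WT libraries. The T cell receptor beta locus Tcrb had 6 members, 2 KO-only and 1 WT-only. Without the 79 members in antigen receptor loci, 168 KO-only and 557 WT-only members were left. Both gates were CD4+, and the part of B cells in the WT-only counts was not tested.

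Lists of other cell types differed in density. Of 26 myeloid genes, 8 flanked 10 deserts, 7 of which held 25 members, a density of 6.48 per Mb against 3.23 over all deserts. Among these members were 2 KO-only (8%) and 9 WT-only (36%), against 7.46% and 24.3% over all deserts. The peaks numbered 11 and 15 in the KO libraries and 18 and 22 in the WT libraries. Ly86, a partner of a Toll-like receptor homolog, adjoined 11 of them with 3 WT-only. Klf4, a transcription factor of monocytes, adjoined 7 with 5 WT-only. Irf8 and Siglech adjoined 1 member each, and both of these were KO-only. Of 12 melanocyte genes, which would mark the tumor line, 4 flanked 5 deserts with 3 members, a density of 0.965 per Mb. Ednrb adjoined 2 of these members and Tyrp1 1, while Kit and Mitf had none. Of the 5 deserts 40% held a member, against 34.2% of all deserts. Developmental transcription factor and signalling genes flanked 101 deserts with 97 members, a density of 1.84 per Mb. Sox4, which T cells also use, led that list with 18 members, 10 of them open in every library. Neuronal and adhesion genes flanked 107 deserts with 121 members, a density of 0.818 per Mb. These 121 members were 18.2% KO-only, 13.2% WT-only and 19.0% open in every library, and had peaks in 65 and 100 cases in the KO libraries and in 63 and 81 in the WT libraries. Rbfox1, a splicing factor of neurons, adjoined 11 of them, with 11 and 11 present in the KO libraries and 3 and 7 in the WT libraries.

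The strongest members were ranked by their lowest percentile in the libraries that had them. Among those open in every library the first stood between Tnfsf18, a ligand of the TNF family, and Fasl, which makes T cells lethal to cells with the receptor Fas, 110 kb from Fasl at chr1:161670677-161671529. Its fold enrichment was 12.4 and 22.6 in the KO libraries and 14.8 and 18.9 in the WT libraries, where the genotypes overlap. Others of this rank were the segment Ighv1-47 at chr12:114990826-114991676, chr13:85724137-85725440 between Rasa1 and Cox7c, and chr4:95160865-95161892 inside the lncRNA gene Junos, 109 kb from the AP-1 gene Jun. The lowest percentile in these 4 members was between 92.7 and 95.9.

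The strongest KO-only member lay at chr13:52241861-52242526 between Gadd45g, a stress-response gene, and Diras2, with a fold enrichment of 6.42 and 8.62 in KO-1 and KO-2. It was followed by chr2:56028242-56028781 between Kcnj3, a potassium channel gene, at 430 kb and Nr4a2, an orphan nuclear receptor gene, at 1078 kb, by the 2 members beside Tox given above, and by chr13:97762157-97762471 between Enc1 and Arhgef28. Their lowest percentiles were between 69.3 and 76.7, below those of the WT-only members. The strongest WT-only member, chr5:68735165-68736022 between Grxcr1 and Kctd8, had a fold enrichment of 17.2 and 15.0 in WT-1 and WT-2. The other WT-only members of this rank had Lmo4, Rnd3 or Ets1 as the nearest protein-coding gene or lay inside Igl, with lowest percentiles between 89.6 and 91.7.

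Members open in every library with the widest gaps between the genotypes lay at other genes. After the Tcra segment, the widest gap with KO above WT was at chr1:184197014-184197891, 122 kb from Dusp10, a phosphatase of stress kinases, with a fold enrichment of 5.89 and 9.26 in the KO libraries, against 3.06 and 2.54 in the WT libraries. The next, chr3:54592072-54592577 between Postn and Supt20, had 3.72 and 4.10 in the KO libraries, against 2.50 and 2.47 in the WT libraries. With WT above KO, chr10:37337806-37338842, 199 kb from Marcks, a substrate of protein kinase C, had 2.63 and 2.997 in the KO libraries, against 8.85 and 7.30 in the WT libraries. At chr10:126502020-126503156 between Lrig3 and Atp23 the values were 2.78 and 3.49 in the KO libraries, against 10.3 and 8.06 in the WT libraries. The last, chr3:149349156-149349719 inside the lncRNA gene Gm30382, had 2.78 and 3.26 in the KO libraries, against 6.88 and 5.75 in the WT libraries.

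Noncoding genes covered part of the clusters. Of the 2386 members, 683 (28.6%) overlapped an lncRNA gene, and 1606 (67.3%) overlapped no annotated gene. Of the 683, 38 were KO-only, 157 WT-only and 306 open in every library. Over all 2386 members the counts were 178 (7.46%), 579 (24.3%) and 854 (35.8%) in the same order. Beside the loci Igh and Tcra, the genes with the most members were Morrbid with 22, Firre with 19 and Lncpint with 15. Morrbid, an lncRNA known in mouse myeloid and CD8 T cells to hold down Bcl2l11, had no KO-only members, 3 WT-only ones and 8 open in every library. Firre, an lncRNA of nuclear organization on chromosome X, had 15 of 19 open in every library, and Lncpint, an lncRNA of the p53 pathway, 11 of 15. Chosen after the values were seen, A930011G23Rik between Rasgef1b and Vamp9 had 14 members, none KO-only and 11 WT-only, and Pvt1 beside Myc had 10 with 6 open in every library.

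No member overlapped a microRNA gene, but some lay close to one. MicroRNAs are short RNAs that pair with messenger RNAs through their seed, bases 2 to 8, shown in capitals in the mature RefSeq sequences (GRCm38.p6) of some of the nearest ones.
mmu-miR-7094-3p: uACUCUGCuguucucuccaca
mmu-miR-7094-1-5p: uCUGAAGAggauacagggucuga
mmu-miR-6372: aGAACUGGggaaacuuccagccu
mmu-miR-12204-5p: uUGAGUCUuagaugagug
mmu-miR-6363: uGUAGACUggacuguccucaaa
mmu-miR-29b-3p: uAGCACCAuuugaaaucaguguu
mmu-miR-29a-3p: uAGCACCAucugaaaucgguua
No seed was shared among the first 5 of these. Mir7094-1, inside Igh, lay 260 bp from a member with a fold enrichment of 3.26 in KO-2 and 3.25 in WT-2, and no peak in the other libraries. Mir6372 in the Bcl11a desert lay 977 bp from a member absent from KO-1, with 4.19 in KO-2, against 6.27 in WT-1 and 4.81 in WT-2. Gm51286, the gene of miR-12204, lay 4577 bp from a member with 5.03 and 5.22 in the KO libraries and 4.21 and 4.57 in the WT libraries. Mir6363 lay 4921 bp from the member over the start of the lncRNA gene Dubr, which had 9.18 and 11.8 in the KO libraries and 11.1 and 13.1 in the WT libraries. The last 2 sequences, chosen after the values were seen, share the seed AGCACCA and come from Mir29b-1 and Mir29a beside Lncpint. Their genes, at 9066 and 9412 bp, were nearest to a WT-only member with a fold enrichment of 2.87 and 2.85 in WT-1 and WT-2. miR-29 is known in mouse T cells to restrain T-bet and interferon gamma.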

How the data were processed

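Peak lists of 4 ATAC-seq libraries were used, 2 KO and 2 WT, grouped and named by the labels. The submitters' processing notes list the tools BWA, SAMtools, Picard, MACS2 and deepTools and the builds GRCm38 and mm10; versions and settings are not given in the sources used. Each deposited list had 10 columns. The deposited fold enrichment (column 7) is a ratio of a peak over local background, set by the authors' caller within each library, and every deposited −log10 q was at least 2. Both values ranked or filtered peaks inside their own list only. Peak numbers missing from the lists (1603 and 1681 in KO, 1758 and 1900 in WT) show that peaks had been removed. Python 3.11.15 merged the lists and placed regions against RefSeq genes (GRCm38.p6); the code was tested on simulated intervals. Named items were the 5 strongest members of each class, the 3 widest gaps in each direction, the 6 largest clusters and deserts, the 5 noncoding genes with the most members, the 5 nearest miRNA genes within 10 kb and up to 6 genes per list. A few items that this rule names are not reported here. The members and lists were chosen with earlier results of these data known. Alternatives were stricter peaks, equal list lengths, summits, other distances, each library left out and a replicate block.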

Additional observations from a re-analysis of the deposited data

How the results depend on the processing

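The count of gene desert regions, 2386, and the counts open in every library (854), KO-only (178) and WT-only (579) followed the strictness of the rule. With a −log10 q of at least 5 there were 1512 members, 563 in every library and 100 KO-only. With a −log10 q of at least 10 there were 949, 350, 50 KO-only and 262 WT-only, a WT-only to KO-only ratio of 5.24. With the 20000 peaks of highest −log10 q in each library there were 683 members, 290 in every library and 137 WT-only, a ratio of 1.02. At more than 50 kb from protein-coding genes there were 4386, 1711, 269 KO-only and 1029 WT-only, at more than 200 kb 997, 320, 100 and 243, and at more than 100 kb from genes of every kind 246, 69, 23 and 67. WT-only members clearly outnumbered KO-only ones in these settings except with the 20000 peaks, where the counts, 137 and 134, were nearly equal. The percent of members in clusters, 65.0, was 61.6, 52.6 and 45.5 under the 3 stricter peak rules in the order given, 52.2 beyond 200 kb, 37.0 away from every gene, and 52.9 or 73.3 with gaps of 25 or 100 kb. With one library left out in turn there were 1614 to 2163 members, 892 to 1114 in every library, 227 to 274 KO-only (WT libraries left out), 613 to 838 WT-only (KO libraries left out), and 61.9 to 65.5 percent in clusters. A KO-only class without a KO library, or a WT-only class without a WT library, would rest on 1 library and could not be set.

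With the 20000 peaks of highest −log10 q, KO minus WT turned to 0.0625 percentage points for the share of peaks in members, to −2.36 for the median percentile and to −59.8 bp for the median width. Leaving out a library gave −0.84 to 0.433 percentage points, 2.52 to 9.74 percentile points and −6 to 43 bp. The share turned positive without WT-1 or WT-2, and the width negative without WT-1. Leaving out a WT library also takes the WT-only members out of the set, so the turn of the share follows in part from the rule. A median width could not be compared around summits, whose width is fixed. In a replicate block that paired KO-1 with WT-1 and KO-2 with WT-2 the differences were −0.488 percentage points, 4.37 percentile points and 16 bp. For the percentile and the width the two-sided exact sign-flip p was 0.5 each, the smallest 2 pairs allow. The share rests on the presence of peaks that chose the members, so no p-value is given for it. The replicate numbers are not stated to pair the samples, and 2 pairs are too few to check it. Other causes of these shifts were not tested. Beside Tox the KO-only count was 5 with a −log10 q of at least 10, and WT-only counts there were at most 4. Depth, unknown here, limits what an absent peak can say.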
